A study of Mus musculus with 10 samples.

Results

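Cdk5rap1, Capn11, Magi1, Zfp69, Slc15a2, Srpk2, Nap1l1 and Acp1 are 8 autosomal genes whose read counts in R2 erythroid precursors differed widely, or in opposite directions, between genotypes. They were chosen for those differences, out of 24421 genes counted, by matching their symbols in the count table, and genes of a chromosome 8 cluster were left out of the choice. Because these same counts chose the genes, their values are a description and carry no test. All 8 passed the filter on low counts that left 11846 genes for testing.

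R2 cells were bone marrow cells sorted for CD71, the transferrin receptor, and Ter119, an erythroid surface antigen. Lethally irradiated BoyJ mice had received 1000000 bone marrow cells from Rosa-CreERT2 donors on a C57BL/6N background, in which tamoxifen switches on a Cre recombinase that is expressed throughout the body. All recipients, controls included, received tamoxifen at 1 mg daily through 2 rounds of 5 days each, and about 100000 R2 cells per mouse were collected 8 weeks post-transplant. The 4 donor genotypes were Ddx41+/+Trp53+/+ (mice 10, 11 and 12), Ddx41+/+Trp53+/- (mice 22, 23 and 24), Ddx41+/-Trp53+/+ (mice 32 and 34) and Ddx41+/-Trp53+/- (mice 46 and 47), where Ddx41+/- is a floxed allele excised by Cre and Trp53+/- is a germline knockout allele. The labels give neither the ages of the mice nor how many donors supplied each genotype, so a difference between genotypes and a difference between donors cannot be told apart. The sort named in the labels used no donor marker, so any surviving host erythroid cells would have been included.

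The libraries held 7866648 to 20283930 counts (mouse 34 the fewest, mouse 11 the most). Ddx41 read 21.9 to 26.6 CPM (counts per 1000000 of the scaled library) in the Ddx41+/+ mice and 12.5 to 16.5 CPM in the Ddx41+/- mice, and Trp53 read 57.4 to 68.1 CPM in Trp53+/+ and 40.3 to 46.2 CPM in Trp53+/- mice. Both targeted genes therefore went with their labels in all 10 mice. Of 13 erythroid markers 12 were detected (Hbb-bt was at 0 in every library), and their sum was 51715 to 58905 CPM. Markers of other marrow cells were also present: 10 neutrophil genes summed to 4944 to 8471 CPM, 12 B cell genes to 269.9 to 595.8 CPM, 10 macrophage genes to 250.1 to 597.0 CPM, 8 megakaryocyte genes to 90.4 to 111.7 CPM and 8 T and NK cell genes to 7.92 to 18.9 CPM. In bulk libraries such as these, fewer cells of a type and less RNA per cell cannot be told apart.

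The 8 genes belong to no common pathway. Srpk2 encodes a kinase of the serine- and arginine-rich splicing factors, Nap1l1 a chaperone that carries histones to and from nucleosomes, and Acp1 the low-molecular-weight protein tyrosine phosphatase, an enzyme also known from red cells. Cdk5rap1 encodes an enzyme that modifies mitochondrial tRNAs, and Zfp69 a zinc finger protein with a KRAB domain, a class of repressors that silence transposable elements. Slc15a2 encodes PEPT2, a proton-coupled transporter of small peptides, Capn11 a calcium-dependent cysteine protease of the calpain family best known from testis, and Magi1 a scaffold of cell junctions. Erythroid precursors at this stage turn their transcription toward hemoglobin and red cell structure under GATA1 and KLF1, factors that bind GATAA-type and CACCC-type letters.

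The genes lie on 8 different chromosomes, which in the GENCODE M21 annotation of GRCm38 are chr2:154335380-154373010 (Cdk5rap1), chr17:45630204-45659325 (Capn11), chr6:93675455-94283917 (Magi1), chr4:120930137-120951699 (Zfp69), chr16:36750177-36784962 (Slc15a2), chr5:23503264-23684617 (Srpk2), chr10:111473223-111498150 (Nap1l1) and chr12:30893326-30911589 (Acp1). Nap1l1 lies on the plus strand and the others on the minus strand. Stretches upstream of the RefSeq starts are shown for 6 of them, 4 because both Ddx41+/-Trp53+/+ mice lay above or below all others (Srpk2, Nap1l1, Acp1 and Cdk5rap1) and 2 because 1 genotype was high (Zfp69) or divided (Slc15a2). Each is read 5′ to 3′ on the gene's strand and lies outside annotated exons. Capitals mark the GATA motif (GATAA), the KLF motif (CACCC), the TATA box (TATAAA), the CCAAT box or the GC box (GGGCGG) on either strand, and neighbouring matches run together. For Srpk2 the stretch with the most of these motifs is shown. Of the stretches at its other starts, chr5:23676461-23676610 held none of them and chr5:23616572-23616721 held CACCC only. The stretches of Srpk2 and Cdk5rap1 lie inside the annotated span of their gene, before a RefSeq start within it.
Srpk2, chr5:23676015-23676164, 1 of 3 RefSeq starts: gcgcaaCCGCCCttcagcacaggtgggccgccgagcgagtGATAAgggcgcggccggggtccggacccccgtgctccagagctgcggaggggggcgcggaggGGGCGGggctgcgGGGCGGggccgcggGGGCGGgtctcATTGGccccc
Nap1l1, chr10:111473073-111473222: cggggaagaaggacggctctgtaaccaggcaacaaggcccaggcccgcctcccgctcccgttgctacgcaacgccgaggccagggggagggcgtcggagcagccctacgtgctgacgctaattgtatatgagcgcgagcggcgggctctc
Acp1, chr12:30911613-30911667, up to the first exon of the neighbour Sh3yl1: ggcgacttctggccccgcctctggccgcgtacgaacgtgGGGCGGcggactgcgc
Cdk5rap1, chr2:154372855-154372961: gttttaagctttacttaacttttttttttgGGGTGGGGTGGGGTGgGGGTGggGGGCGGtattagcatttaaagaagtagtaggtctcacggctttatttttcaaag
Zfp69, chr4:120951702-120951851, 1 of 2 RefSeq starts: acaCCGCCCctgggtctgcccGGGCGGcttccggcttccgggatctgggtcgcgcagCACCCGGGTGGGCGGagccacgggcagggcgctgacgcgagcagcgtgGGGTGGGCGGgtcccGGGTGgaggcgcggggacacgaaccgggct
Slc15a2, chr16:36784963-36785112: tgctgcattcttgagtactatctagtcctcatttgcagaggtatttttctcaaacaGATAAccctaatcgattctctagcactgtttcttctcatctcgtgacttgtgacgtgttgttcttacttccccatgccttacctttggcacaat

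The motifs were counted in 300-base RefSeq promoter windows (GRCm38.p6), from 250 bases before to 50 after each start, of which the 8 genes had 12. GATAA was found in 3 of the 12 windows, of Srpk2 and Slc15a2, and in 25.4% of all 32851 windows. CACCC was found in 9 of the 12 (57.5% of all windows), GGGCGG in 8 (35.7%), CCAAT in 5 (37.4%) and TATAAA in 1 (13.6%). The 2 windows of Zfp69 overlap. A match describes the letters only.

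The label under which these genes were grouped, switching between single mice, held for 1 of them by the widest gap between mice. When the 10 mice were ordered by log2 CPM (with a prior count of 2), the widest gap between neighbouring mice separated whole genotypes for 7 of the 8 genes. Only for Slc15a2 did it fall inside a genotype, between mice 32 and 34 of Ddx41+/-Trp53+/+. By range within a genotype, Magi1 (3.13 on the log2 scale, in Ddx41+/+Trp53+/-) was as wide as Slc15a2 (3.10), though its widest gap separated whole genotypes. The genes are therefore described by their genotype patterns.

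**Figure D1:**
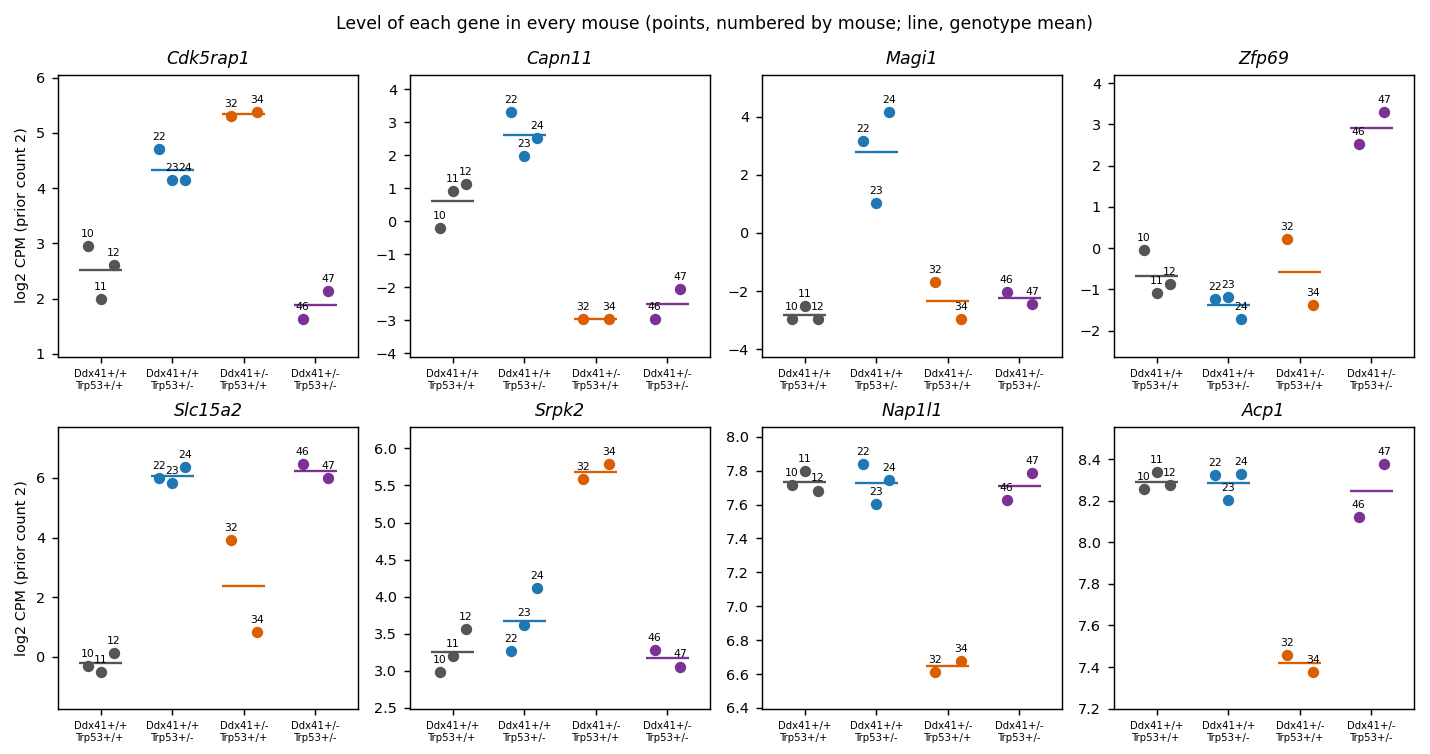
Level of each of the 8 genes in log2 CPM (prior count 2) on the vertical axis, 1 point per mouse labelled with its number and 1 column per genotype, with the genotype mean as a line; the vertical axes differ between panels and do not start at 0. The 2 Ddx41+/-Trp53+/+ mice stand apart from the other 8 for Srpk2, Nap1l1, Acp1 and Cdk5rap1, and differ from each other for Slc15a2.

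Srpk2 was high in the Ddx41+/-Trp53+/+ mice alone. Its level was 48.0 CPM in mouse 32 and 55.1 CPM in mouse 34. In the Ddx41+/+Trp53+/+ mice it was 7.80, 9.04 and 11.7 CPM. The Ddx41+/+Trp53+/- mice had 9.50, 12.2 and 17.2 CPM, and the Ddx41+/-Trp53+/- mice 9.59 and 8.19 CPM. The highest of the other 8 mice, mouse 24, lay well below both Ddx41+/-Trp53+/+ mice, and the other 3 genotypes overlapped. The mean of Ddx41+/-Trp53+/+ (51.6 ± 5.04 CPM, SD, n = 2) was 5.42-fold that of Ddx41+/+Trp53+/+ (9.51 ± 1.99 CPM, n = 3), whereas with Trp53+/- the Ddx41+/- mean was 0.685-fold the Ddx41+/+ mean.

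Nap1l1 was low in the same mice and even in all others. The Ddx41+/-Trp53+/+ mice read 97.9 and 102.4 CPM (1609 and 806 counts). The Ddx41+/+Trp53+/+ mice read 210.4, 222.0 and 205.4 CPM, the Ddx41+/+Trp53+/- mice 228.8, 194.3 and 214.6 CPM and the Ddx41+/-Trp53+/- mice 197.8 and 220.8 CPM. The ratio of means was 0.471 for Ddx41+/- against Ddx41+/+ with Trp53+/+ and 0.985 with Trp53+/-. The SD within each genotype was at most 17.3 CPM, so the 2 low mice lay far below the spread of the other 8.

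Acp1, like Nap1l1, was low in mice 32 and 34. They read 175.4 and 166.2 CPM. The other 8 mice read between 278.3 CPM (mouse 46) and 332.1 CPM (mouse 47), both of them Ddx41+/-Trp53+/-. The Ddx41+/+ genotypes had means of 313.3 ± 9.39 CPM with Trp53+/+ and 312.3 ± 15.0 CPM with Trp53+/- (SD, n = 3 each). Acp1 in Ddx41+/-Trp53+/+ was 0.545-fold its level in Ddx41+/+Trp53+/+, and in Ddx41+/-Trp53+/- 0.977-fold that in Ddx41+/+Trp53+/-. For Srpk2, Nap1l1 and Acp1 alike, the other 3 genotypes overlapped.

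Cdk5rap1 was higher in both single heterozygotes, so that its order between the Ddx41 genotypes turned with the Trp53 genotype. The Ddx41+/-Trp53+/+ mice read 39.6 and 41.5 CPM and the Ddx41+/+Trp53+/- mice 25.9, 17.6 and 17.6 CPM. The Ddx41+/+Trp53+/+ mice read 7.59, 3.84 and 5.95 CPM and the Ddx41+/-Trp53+/- mice 2.96 and 4.26 CPM. Both single heterozygotes lay above every mouse of the double wild type and of the double heterozygote, which overlapped each other, and the Ddx41+/-Trp53+/+ mice also lay above all other 8. Ddx41+/- was 7.0-fold Ddx41+/+ with Trp53+/+ and 0.177-fold with Trp53+/-, and Trp53+/- was 3.51-fold Trp53+/+ with Ddx41+/+ and 0.0891-fold with Ddx41+/-.

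Slc15a2 was low in the double wild type, high in both Trp53+/- genotypes and divided in Ddx41+/-Trp53+/+. The Ddx41+/+Trp53+/+ mice had 13, 12 and 14 counts (0.686, 0.583 and 0.968 CPM). The Ddx41+/+Trp53+/- mice had 633, 916 and 1413 counts (63.3, 56.6 and 82.2 CPM), and the Ddx41+/-Trp53+/- mice 1517 and 1139 counts (88.1 and 63.9 CPM). The Trp53+/- genotypes overlapped, with a ratio of their means of 1.13. With Ddx41+/+, Trp53+/- was 90.4-fold Trp53+/+, resting on 12 to 14 counts in each Trp53+/+ library.

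Within Ddx41+/-Trp53+/+, mouse 32 had 248 counts of Slc15a2 (15.1 CPM, 95% exact Poisson interval 13.3 to 17.1) and mouse 34 had 13 counts (1.65 CPM, 0.879 to 2.82). The intervals, which cover counting error only, lay apart, and mouse 34 was also the shallowest library. Mouse 32 lay between the wild type and the Trp53+/- mice, and mouse 34 above the highest wild-type mouse with an interval that reached below it. The mean of this genotype, 8.37 ± 9.50 CPM (SD, n = 2), describes neither mouse. The difference of its mean log2 CPM from Ddx41+/+Trp53+/+ was 1.05 without mouse 32 and 4.16 without mouse 34.

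Markers of other cells were compared between these genotypes as well. The B cell sum was 269.9 to 446.2 CPM in Ddx41+/+Trp53+/+, 442.9 to 527.9 CPM in Ddx41+/+Trp53+/-, 420.9 to 595.8 CPM in Ddx41+/-Trp53+/+ and 488.0 to 556.3 CPM in Ddx41+/-Trp53+/-. Of the 12 markers, 6 were called higher in Ddx41+/+Trp53+/- than in Ddx41+/+Trp53+/+ and 2 in Ddx41+/-Trp53+/+ than in Ddx41+/+Trp53+/+ (edgeR quasi-likelihood test, fold change over 1.5 and adjusted p under 0.05), and none was at 0 in any whole genotype. Of all tested genes 0.912% and 0.54% were called in those comparisons, in either direction. The T and NK cell sum was 7.92 to 12.3 CPM in Ddx41+/+Trp53+/+ and higher in every other mouse, at 14.3 to 18.9 CPM in Ddx41+/+Trp53+/-, 13.4 to 18.8 CPM in Ddx41+/-Trp53+/+ and 12.7 to 14.8 CPM in Ddx41+/-Trp53+/-. The macrophage sum overlapped the double wild type (313.9 to 597.0 CPM) in each, at 250.1 to 346.9 CPM, 377.1 to 488.2 CPM and 398.5 to 501.7 CPM in the same order. The neutrophil sum overlapped that of the double wild type (5289 to 8463 CPM) in each other genotype. None of the 8 T and NK cell, 10 macrophage, 10 neutrophil or 5 megakaryocyte markers tested was called in any comparison. The part of any of these cells in the Slc15a2 values was not tested.

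Magi1 was counted in the Ddx41+/+Trp53+/- mice and hardly anywhere else. Those mice had 87, 31 and 305 counts (8.70, 1.92 and 17.8 CPM), a wide spread for 1 genotype. The Ddx41+/+Trp53+/+ mice had 0, 1 and 0 counts, the Ddx41+/-Trp53+/+ mice 3 and 0 and the Ddx41+/-Trp53+/- mice 2 and 1. A count of 0 allows up to 3 counts, which was 0.158 CPM in mouse 10 and 0.208 CPM in mouse 12. Over pooled counts, the ratio of Ddx41+/+Trp53+/- to Ddx41+/-Trp53+/- was 114.0 (95% counting interval 38.7 to 554.8) and to Ddx41+/+Trp53+/+, where it rests on 1 count, 526.8 (94.0 to 20855). Without mouse 24 these ratios were 52.7 and 243.4, without mouse 46 the first was 174.0, and without mouse 10 the second was 341.8. No ratio was formed between the other genotypes, which were all at or under that floor.

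Capn11 was counted in all 6 Ddx41+/+ mice and absent or nearly so in the 4 Ddx41+/- mice. The Ddx41+/+Trp53+/+ mice had 14, 36 and 30 counts (0.738, 1.75 and 2.08 CPM), and the Ddx41+/+Trp53+/- mice 98, 62 and 97 counts (9.80, 3.83 and 5.65 CPM). Mice 32, 34 and 46 had 0 counts and mouse 47 had 2. Its widest gap thus divided the mice by Ddx41 genotype alone. Against the floor of 3 counts per library it was at least 5.4-fold higher in Ddx41+/+Trp53+/+ than in Ddx41+/-Trp53+/+. With Trp53+/-, the ratio of Ddx41+/+ to Ddx41+/- over pooled counts was 103.9 (counting interval 28.5 to 862.2, and 52.8 without mouse 46), and among the Ddx41+/+ mice Trp53+/- was 4.22-fold Trp53+/+.

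Zfp69 was high in the double heterozygotes alone, with 97 counts (5.64 CPM) in mouse 46 and 174 counts (9.76 CPM) in mouse 47. The Ddx41+/+Trp53+/+ mice had 16, 7 and 6 counts (0.844, 0.340 and 0.415 CPM) and the Ddx41+/+Trp53+/- mice 3, 5 and 3 counts (0.300, 0.309 and 0.175 CPM). In Ddx41+/-Trp53+/+, mouse 32 had 17 counts (1.03 CPM) and mouse 34 had 2 counts (0.254 CPM, 95% interval 0.0308 to 0.918). The mean of Ddx41+/-Trp53+/- was 29.5-fold that of Ddx41+/+Trp53+/- and 11.9-fold that of Ddx41+/-Trp53+/+, the latter 30.4-fold without mouse 32 and 7.44-fold without mouse 34. Between Ddx41+/-Trp53+/+ and Ddx41+/+Trp53+/+ the ratio was 1.21 (0.473 without mouse 32 and 1.94 without mouse 34), the groups overlapped, and the difference of mean log2 CPM was -0.72 without mouse 32.

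Counted over the comparisons, 6 of the 8 genes had no overlap between Ddx41+/- and Ddx41+/+ mice with Trp53+/+ (24.9% of all tested genes had none), namely all but Magi1 and Zfp69. With Trp53+/- the count was 4 of 8 (20.0% of all tested genes), namely Cdk5rap1, Capn11, Magi1 and Zfp69. Between Trp53+/- and Trp53+/+ it was 5 of 8 with Ddx41+/+ (14.1%), all but Srpk2, Nap1l1 and Acp1, and 6 of 8 with Ddx41+/- (37.3%), all but Capn11 and Magi1. The genes were chosen on these contrasts, and comparisons that share a genotype share its mice, so nothing is read from the counts.

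Among the 11064 autosomal tested genes, the widest gap between neighbouring mice had a median of 0.20 on the log2 scale and a 99th percentile of 1.52. Slc15a2 had rank 3 with a gap of 3.10, Magi1 rank 5 with 2.72 and Zfp69 rank 12 with 2.31. Capn11 (1.85) had rank 42, Srpk2 (1.47) rank 131, Cdk5rap1 (1.20) rank 267, Nap1l1 (0.92) rank 584 and Acp1 (0.67) rank 1221. The spread inside a genotype told the 8 genes apart. Magi1 ranged over 3.13 and Slc15a2 over 3.10 within 1 genotype, ranks 59 and 66 of all, against 0.24 for Nap1l1 and 0.25 for Acp1, which lay below the median gene (0.49). The share of the variance of log2 CPM that lay between genotypes was 90.6% (Magi1) to 97.4% (Nap1l1). Its median over all autosomal genes was 35.8%, where 33.3% is what 3 of 9 degrees of freedom give. The 8 genes were chosen for large or opposite genotype differences in these counts. High ranks and shares therefore follow from the choice, and nothing is read from them. Magi1 passed the filter on low counts only through the Ddx41+/+Trp53+/- mice, and Capn11 only through the Ddx41+/+ mice.

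**Figure D2:**
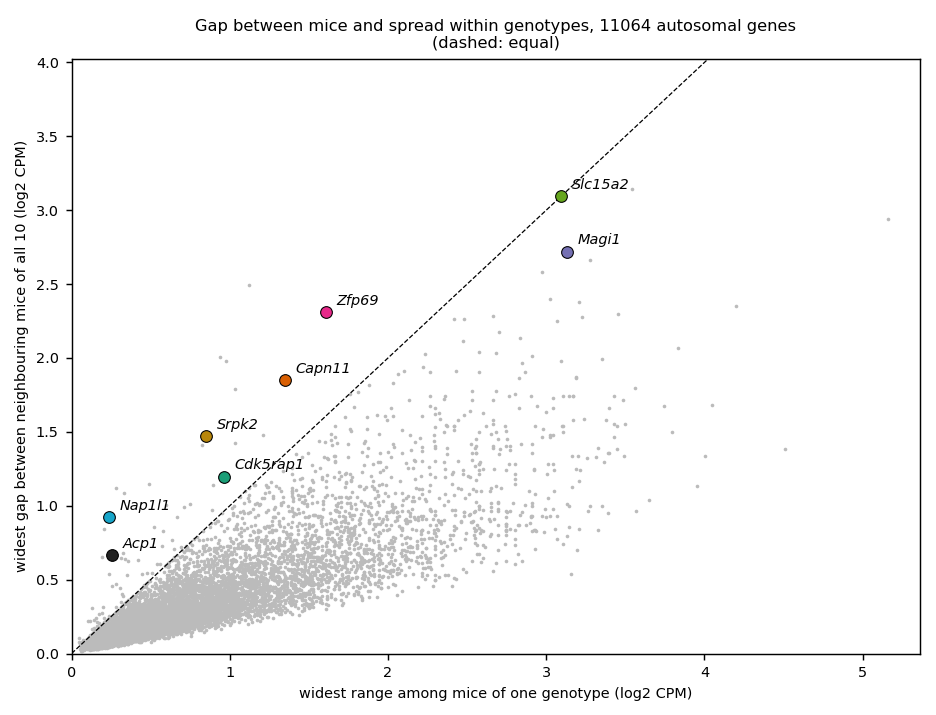
Widest gap between neighbouring mice of all 10 (vertical axis, log2 CPM) against the widest range among mice of 1 genotype (horizontal axis, log2 CPM) for 11064 autosomal tested genes (grey) and the 8 genes (coloured); the dashed line marks equal values. Slc15a2 lies on the line, since its widest gap is inside 1 genotype, Magi1 lies below it and the other 6 lie above it.

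By the same measure of spread inside a genotype, the widest autosomal genes were others: Ear6, Zbtb16, Pde1c, Rbm44, Tgtp1, Gmpr, Homer2, Dpep2, Ptges and Gcat, with ranges of 5.16 down to 3.65 on the log2 scale. Ear6 is an eosinophil-associated ribonuclease, and Zbtb16 the transcription factor PLZF. Their mean levels were 0.332 to 1.44 CPM except for Rbm44 at 9.19 CPM. Of the 8 genes, the 2 with the most counts, Nap1l1 and Acp1, had the narrowest spread.

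Across the 10 mice, Nap1l1 and Acp1 correlated in log2 CPM with a Pearson r of 0.99, and Srpk2 ran opposite to both (-0.95 with Nap1l1 and -0.93 with Acp1). The next highest positive values were 0.77 for Cdk5rap1 and Srpk2, 0.70 for Capn11 and Magi1 and 0.65 for Capn11 and Acp1. The other 22 of 28 pairs lay between -0.66 and 0.65. The 10 points share 4 genotypes and their libraries, so these values are descriptions.

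For each of the 8, the 3 tested genes with the highest Pearson r over the 10 mice were taken as the most alike. Values picked as the highest of all tested genes are large by that choice, so they too are descriptions. For Nap1l1 they were Acp1 (0.99), Prkaca (0.97), the catalytic subunit of protein kinase A, and Neto2 (0.97), and for Acp1 they were Nap1l1 (0.99), Wdr76 (0.99) and Neto2 (0.98). Prkaca and Neto2 lie on chromosome 8. Prkaca read 41.2 to 51.1 CPM in the Ddx41+/-Trp53+/+ mice and 69.4 to 86.2 CPM in all others, and Neto2 3.68 to 5.23 CPM against 11.8 to 14.6 CPM. For Srpk2 the nearest were Smim7 (0.98) and Cpne2 (0.95), both on chromosome 8, and Strc (0.98) on chromosome 2. Strc had 0.852 and 1.40 CPM as its lowest and highest values in Ddx41+/-Trp53+/+, at most 0.116 CPM in Ddx41+/+Trp53+/- and 0 in the other 2 genotypes. Wdr76 (chr2:121506723-121544860) lies close to Strc (chr2:121363728-121387168). None of the alike genes named here lies on the chromosome of the gene it resembles.

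For Slc15a2 the genes most alike were Rasal1 (0.95), Igtp (0.93) and Mphosph9 (0.92). Igtp, an interferon-inducible immunity GTPase, lies on chromosome 11, as does Trp53, and linkage between them was not tested. It read 164.8 to 215.6 CPM in the Trp53+/- mice of Ddx41+/+ and 174.2 to 194.0 CPM in the double heterozygotes. In the double wild type it read 34.9 to 61.8 CPM and in Ddx41+/-Trp53+/+ 44.6 to 53.9 CPM. Unlike Slc15a2, it did not divide mice 32 and 34. Cdk5rap1 was followed by Tor2a (0.93), Susd2 (0.91) and Qsox1 (0.88), Capn11 by Stim1 (0.95), Zfp41 (0.95) and Wnt3a (0.95), Magi1 by Pgls (0.92), Creg1 (0.91) and Nxpe2 (0.90), and Zfp69 by Baz2b (0.88), Nat14 (0.87) and B230307C23Rik (0.87). Tor2a (chr2:32757234-32762244) shares chromosome 2 with Cdk5rap1 (chr2:154335380-154373010) but lies far from it. Rasal1 and Wnt3a were low in all mice, at 0.243 to 1.16 CPM and 0.0581 to 0.699 CPM. Stim1, a calcium sensor of the endoplasmic reticulum, ranged only from 66.1 to 85.9 CPM while Capn11 went from 0 to 9.80 CPM.

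The genes beside the 8 were tested next, since none of them is among the 8. A neighbour with a large difference could have been chosen itself, so these tests are not independent of the choice. The nearest tested protein-coding gene on each side gave 16 neighbours, at distances from 0 (Kmt2e, which overlaps Srpk2) to 1460530 bases (Rbsn, beside Magi1). By the edgeR quasi-likelihood test 0 of the 16 were called in each of the 4 comparisons and in the interaction, where 0.54%, 0.0422%, 0.912%, 0.169% and 0.0675% of all tested genes were called, so a count of 0 is close to the background. At an unadjusted p under 0.05 there were 2, 2, 4, 1 and 1 in the same order, and DESeq2 called 0 in each.

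Sh3yl1, which encodes a lipid-binding SH3 protein and starts 79 bases from Acp1 on the opposite strand, had a log2 difference of 0.41 ± 0.11 (SE) for Ddx41+/- with Trp53+/+ (adjusted p = 0.111, edgeR), with Acp1 lower in those mice. Kmt2e, a chromatin regulator whose exons share 972 bases with those of Srpk2 on the other strand, had 0.01 ± 0.08 (adjusted p = 0.98). Phlda1, beside Nap1l1, had -0.25 ± 0.38 (adjusted p = 0.894). None of these 3 neighbours was called.

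Beside Slc15a2, Eaf2, an elongation factor partner 7922 bases away, had a log2 difference of 1.29 ± 0.56 between Trp53+/- and Trp53+/+ with Ddx41+/+ (adjusted p = 0.456), and Cd86, a costimulatory receptor of antigen-presenting cells 84096 bases away on the other side, had -0.80 ± 0.28 (adjusted p = 0.288). Capn11's neighbour Tmem63b, 846 bases away, had -0.26 ± 0.23 for Ddx41+/- with Trp53+/- (adjusted p = 1), and Zfp69's neighbour Exo5, 5120 bases away, had 0.83 ± 0.41 in that comparison (adjusted p = 1). Magi1's neighbour Slc25a26 had 0.04 ± 0.48 for Trp53+/- with Ddx41+/+ (adjusted p = 0.988). None of these passed the test, and the standard errors of Eaf2, Exo5 and Slc25a26 were wide.

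Of 233 tested genes within 2 Mb of the 8, 0 were called in each comparison and in the interaction (edgeR and DESeq2 alike), and 19, 7, 15, 18 and 9 had an unadjusted p under 0.05. Those are 8.15%, 3.0%, 6.44%, 7.73% and 3.86% of them, beside 9.64%, 3.75%, 9.44%, 5.41% and 5.01% of all tested genes. On the scale of mean log2 CPM, the 233 genes differed by -1.10 to 1.66 between Ddx41+/- and Ddx41+/+ with Trp53+/+. Of the 8 genes, 4 left that range, which follows from their choice for large or opposite differences in these counts. The windows of 1 and 5 Mb, added after the data were seen, held 124 and 470 tested genes. Within 1 Mb 0 were called, and within 5 Mb 2 were called for Ddx41+/- with Trp53+/+ (Foxp1 and Zc3h12a, 0.426%) and 3 for Trp53+/- with Ddx41+/+ (Rftn1, Foxp1 and Zc3h12a, 0.638%), shares near the background.

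**Figure D3:**
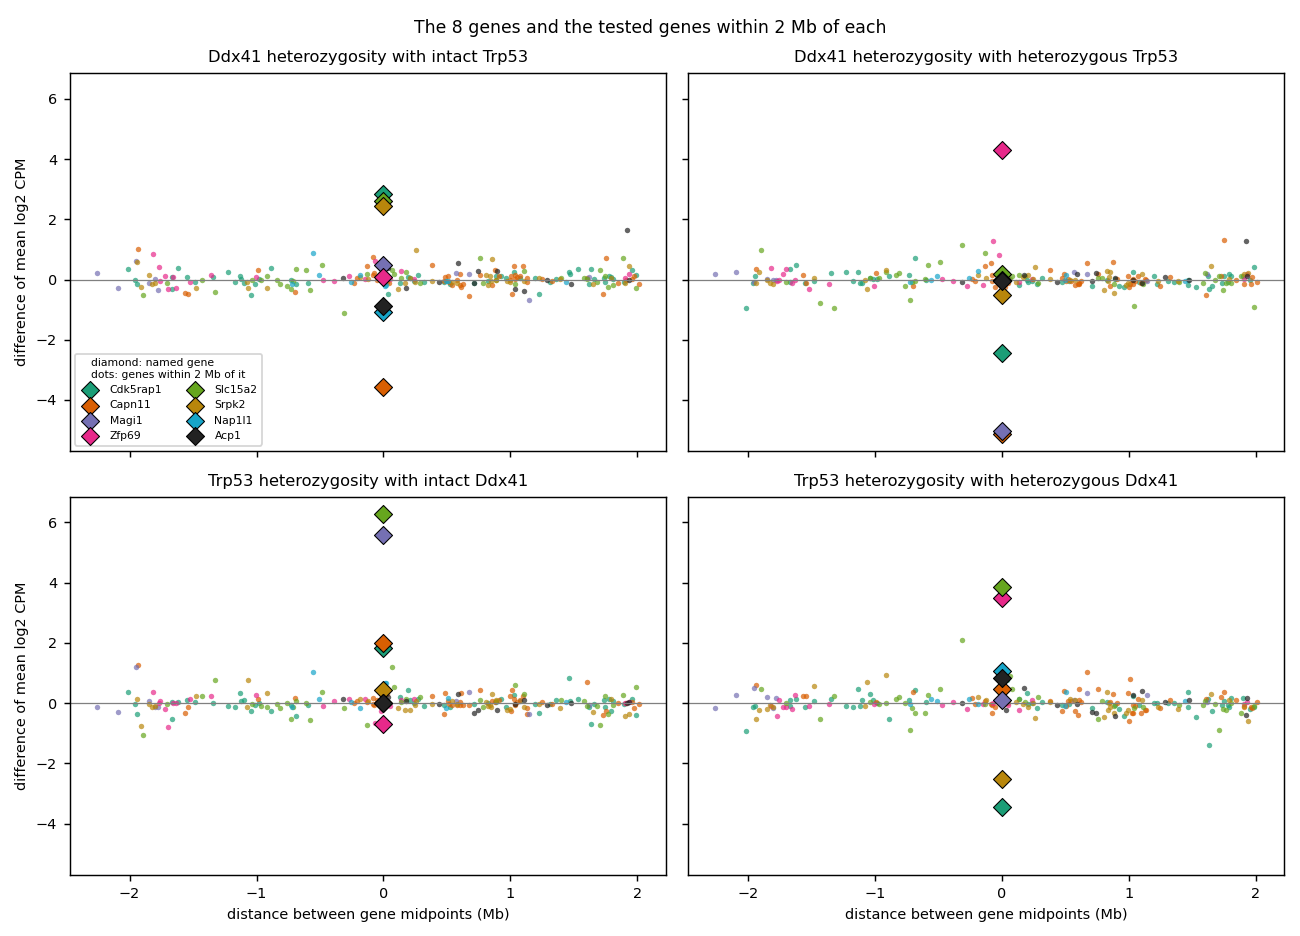
Difference of mean log2 CPM (vertical axis) against the distance between gene midpoints in Mb (horizontal axis) for the 233 tested genes within 2 Mb of the 8 genes (dots, coloured by the gene they lie near) and for the 8 genes themselves (diamonds at 0), in 4 comparisons. In each comparison 4 of the 8 diamonds lie outside the range of all dots, which follows from the choice of the 8 on these counts.

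Genes of the same or related roles were tested as well, in 8 lists with 151 tested genes that are not among the 8. With Trp53 heterozygosity in Ddx41+/+ mice, 1 of the 151 was called (0.662%, beside 0.912% of all tested genes, so close to the background). It was Dusp10, a phosphatase of stress-activated kinases (log2 difference 1.32 ± 0.28, adjusted p = 0.0316, edgeR), which read 2.45 ± 1.13 CPM in the double wild type and 6.03 ± 0.50 CPM in Ddx41+/+Trp53+/-. Of the 151 genes 0 were called in that comparison without mouse 10, 11, 22, 23, 24, 46 or 47. In the other 3 comparisons and the interaction 0 were called by edgeR. The unadjusted p was under 0.05 for 17, 2, 12, 8 and 3 genes, which are 11.3%, 1.32%, 7.95%, 5.3% and 1.99% of the 151, beside 9.64%, 3.75%, 9.44%, 5.41% and 5.01% of all tested genes. DESeq2 called 1, 0, 3, 0 and 0.

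By list, the median differences for Ddx41+/- with Trp53+/+ ran from -0.15 in tRNA modification (21 genes) and -0.12 in histone chaperones (24 genes) upward. The highest was 0.11, in the list of protein tyrosine and acid phosphatases (31 genes). The median of all tested genes was 0.00. The calpain system (8 genes), junction scaffolds (16 genes), KRAB silencing factors (24 genes), peptide transporters and muropeptide sensing (9 genes) and SR proteins with their kinases (21 genes) had medians of -0.02, -0.03, -0.04, 0.04 and -0.05. For Trp53+/- with Ddx41+/+ the medians ran from -0.25 (peptide transporters and muropeptide sensing) to 0.09 (phosphatases).

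**Figure D4:**
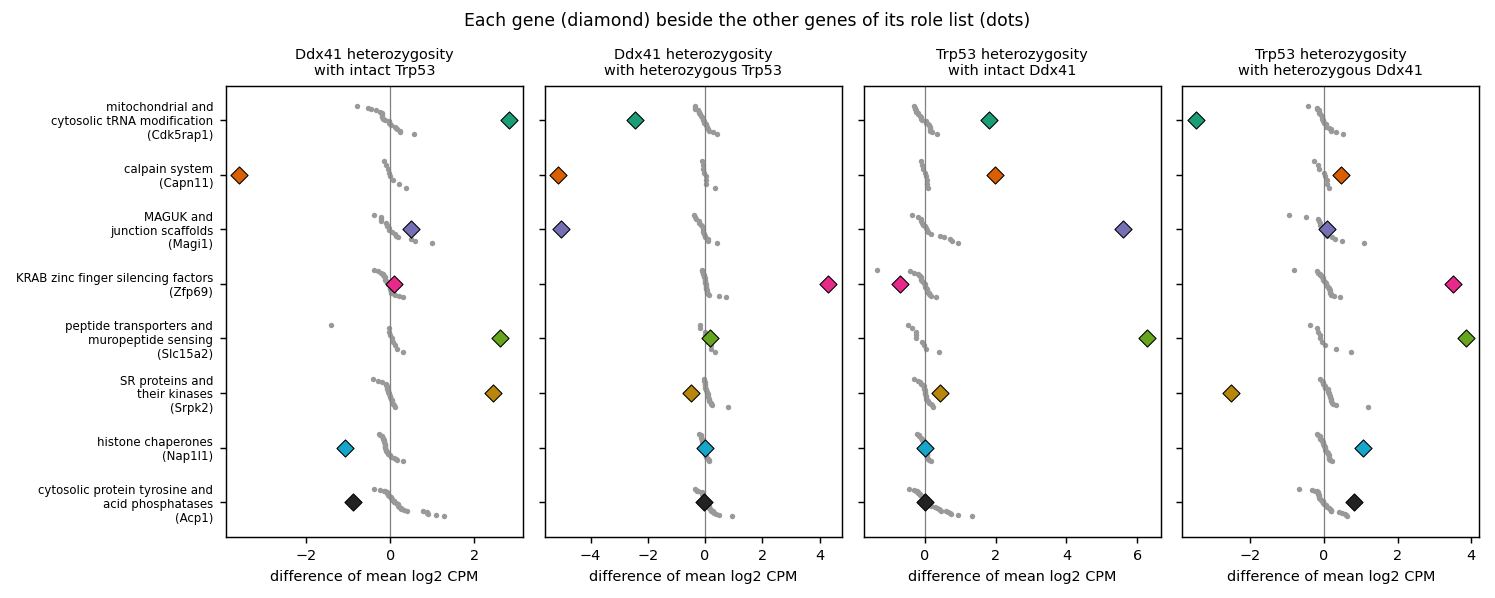
Difference of mean log2 CPM (horizontal axis) for the other tested genes of each role list (dots) and for the named gene of that list (diamond), 1 row per list and 1 panel per comparison; the horizontal axes differ between panels. The 151 other genes lie between -1.40 and 1.34 in all panels. From left to right, 4, 5, 4 and 4 of the 8 diamonds lie outside the range of the dots. That follows from the choice of the 8 on these counts.

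The closest relatives of the 8 were also measured. Nap1l4, the paralog of Nap1l1, read 313.4 ± 14.0 CPM in Ddx41+/+Trp53+/+ and 289.1 ± 15.2 CPM in Ddx41+/-Trp53+/+ (log2 difference -0.12 ± 0.07, adjusted p = 0.656). Srpk1, the other widely expressed SR-protein kinase, read 20.8 ± 2.31 and 18.3 ± 2.12 CPM (-0.18 ± 0.15, adjusted p = 0.765) where Srpk2 was 5.42-fold higher. Cdkal1, a tRNA methylthiotransferase related to Cdk5rap1, read 5.20 to 5.76 CPM as means of the 4 genotypes.

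Of the Slc15a2 family, the lysosomal transporters Slc15a3 and Slc15a4 had log2 differences of -0.28 ± 0.22 and -0.10 ± 0.13 for Trp53+/- with Ddx41+/+ (adjusted p = 0.751 and 0.875), and the intestinal Slc15a1 was at 0 counts in all 10 mice. Capn1, the ubiquitous calpain, read 284.9 to 305.6 CPM as genotype means. Magi3 read 1.66 to 2.79 CPM, with a difference of 0.75 ± 0.38 for Trp53+/- with Ddx41+/+ (adjusted p = 0.56), and Magi2 was at or under 0.116 CPM in every mouse. The acid phosphatases Acp2, Acp5 and Acp6, which share the symbol of Acp1 but not its protein family, had differences of -0.08, -0.08 and 0.04 for Ddx41+/- with Trp53+/+ (adjusted p of 0.838 to 0.986). None of the relatives that passed the filter was called in any comparison.

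Sequence shared with other genes bears on 3 of the 8. No 75-base stretch of the longest transcripts of Cdk5rap1, Capn11, Magi1, Zfp69 or Slc15a2 occurred in a transcript of another gene. Of the Srpk2 transcript 14.0% of stretches were shared with Kmt2e, of Nap1l1 23.7% with the pseudogene Gm4204, and of Acp1 26.2% with 4 genes, mostly Alkal2 (15.2%), whose exons overlap 529 bases of Acp1. The strand setting of the counting is not given in the sources used here, so reads of Srpk2 and Kmt2e, or of Acp1 and Alkal2, cannot be told apart where they overlap. Srpk2, Nap1l1 and Acp1 values are uncertain to that extent.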

How the data were processed

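Per the labels, R2 cells of 10 mice in 4 genotypes were profiled by mRNA sequencing, with 1 library per mouse. The labels name a stranded TruSeq mRNA kit and the paper a TruSeq RNA v2 kit. Raw counts of reads for each gene symbol, not normalized, were deposited by the authors, and mice 35 and 45, which the deposited table is named as leaving out, were not used here. The submitters' processing notes name FastQC 0.11.7, HISAT2 2.0.5, featureCounts 1.5.2 and mm10, and the annotation and strand setting are not given in the sources used here.

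The counts went into edgeR 4.0.16 (R 4.3.3) with filterByExpr by genotype, TMM scaling and a quasi-likelihood model with 1 mean per genotype over all 10 libraries. Two-sided p-values were adjusted over 11846 genes by the Benjamini-Hochberg method, and genes with an adjusted p under 0.05 and a fold change over 1.5 were called. CPM used the scaled library sizes, and log2 CPM a prior count of 2. Where no library of a genotype exceeded 3 counts, ratios were lower bounds or carried exact counting intervals. Intervals and floors cover counting error only, since reads without molecular identifiers are not independent molecules. The labels do not say that mice of a genotype had separate donors, so p-values measure only the spread between these mice. Alternatives were DESeq2 1.42.0, its size factors, no filter, a filter of 10 counts in each library, a fit of the 2 genotypes alone, a prior count of 0.5, and each mouse left out. Depth was 7866648 to 20283930 counts per library. The procedure was tested on simulated data.

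The 8 genes and all lists were chosen with earlier results of these data known, so no p-value is given for the 8. The other genes named are, by rule, the nearest tested protein-coding gene on each side, the 3 genes with the highest r, list genes called in a comparison, and the 10 autosomal genes with the widest range within a genotype. The values of 1 neighbour are not reported here. Paralogs were added after their values were seen, as were genes called within 5 Mb. Positions are from GENCODE M21, and promoter sequences from RefSeq (GRCm38.p6), which matched all 8 symbols. Figures were drawn with matplotlib.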

Additional observations from a re-analysis of the deposited data

Results flagged for a closer look

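Cdk5rap1 was picked out because every Ddx41+/- mouse lay above every Ddx41+/+ mouse with Trp53+/+ and below with Trp53+/-. The Ddx41 difference in mean log2 CPM with Trp53+/- minus that with Trp53+/+ was -5.28, and the Trp53 difference turned likewise between the Ddx41 genotypes, with the same value of -5.28. Zfp69 was picked out because every Trp53+/- mouse lay below every Trp53+/+ mouse with Ddx41+/+ and above with Ddx41+/-, a change of 4.21 in the Trp53 difference, of which the Ddx41+/+ side rests on 3 to 16 counts per library. Neither difference was tested, since these values chose the genes. Genotypes of 2 or 3 mice were too small for a check of single outlying mice.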

How the results depend on the processing

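The number of genes called over the whole table depended on the processing. For Ddx41+/- with Trp53+/+ (64 called), Ddx41+/- with Trp53+/- (5), Trp53+/- with Ddx41+/+ (108), Trp53+/- with Ddx41+/- (20) and the interaction (8), no filter on low counts gave 243, 39, 250, 67 and 100. DESeq2 gave 131 for the first comparison, 36 for Trp53+/- with Ddx41+/- and 29 for the interaction. At least 10 counts in every library gave 2 for Ddx41+/- with Trp53+/-. Only the 2 genotypes compared gave 66 for Trp53+/- with Ddx41+/+ and 37 for Trp53+/- with Ddx41+/-, and cannot give the interaction. With 1 mouse left out, the ranges were 13 to 103, 1 to 10, 35 to 115, 13 to 24 and 8 to 12. Counts moved by over 1.5 times for Ddx41+/- with Trp53+/+ without mouse 12 (103), 32 (26) or 34 (13), for Ddx41+/- with Trp53+/- without mouse 23 (10), 46 (1) or 47 (2), for Trp53+/- with Ddx41+/+ without mouse 24 (35) and for Trp53+/- with Ddx41+/- without mouse 34 (13). Without mouse 11, Trp53+/- with Ddx41+/+ split into 68 higher and 40 lower, against 100 and 8. The causes were not tested. A genotype left with 1 mouse was assumed to vary like the others.

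Neighbours and genes within 2 Mb had 0 called in all 74 alternatives, and list genes 0 in 64 and at most 3. Of 416 alternative values of the differences of the 8 genes, 400 moved by less than 1 SD, 4 moved with the prior count, 12 with a mouse left out and 0 with the scaling. Without mouse 46, Acp1 in Ddx41+/-Trp53+/- against Ddx41+/+Trp53+/- changed sign to 0.089. No paired analysis was possible because the genotypes share no replicate numbers. Low counts limit Magi1, Capn11 and Zfp69, and 2 or 3 mice per genotype limit the rest.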
